A study of Mus musculus with 8 samples.

Results

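The genes described here are the collagens, chosen by name: every protein-coding gene in the authors' comparison table whose symbol begins with Col, a number, the letter a and a number. This gave 45 of the 55385 genes in the table. Of these, 44 are collagen genes, and 1, Col4a3bp, encodes a ceramide transfer protein that only shares the symbol, so it was kept apart from every collagen count. Levels were given as TPM (transcript abundance scaled to a constant library sum), which are corrected for gene length, so levels of different genes can be set side by side. RNA came from neural stem and progenitor cells (NSPCs) that were sorted by flow cytometry from mouse cortex at postnatal day 7. The iKO group of 4 libraries carried Nestin-CreERT2, Ash2lf/f and tdTomato, and the WT group of 4 libraries carried Nestin-CreERT2 and tdTomato without the floxed allele, so both groups carried the inducible Cre and the reporter. Nestin-CreERT2 is a Cre recombinase driven by the Nestin promoter, which is active in neural stem and progenitor cells but not in these alone, and which acts on the floxed gene after tamoxifen. Ash2l encodes a core protein of the MLL and SET1 histone H3 lysine methyltransferases. No tamoxifen dose or time and no sorting gate is given in the labels used here.

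Collagens are extracellular matrix proteins in which chains wind into a triple helix, with glycine recurring at a regular interval along the helical part. Fibrillar collagens assemble into fibres, type IV collagens form the sheet-like network of basement membranes, and the remaining classes decorate fibres, span cell membranes or build filaments and networks. In the brain, collagens are best known from blood vessels, the meninges and the basement membrane under the pial surface, where the ends of radial glia attach. New chains are hydroxylated and folded in the endoplasmic reticulum, exported, trimmed outside the cell and cross-linked, and cells bind them through integrins, discoidin domain receptors and adhesion receptors.

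Across the series, Ash2l averaged 17.6 ± 1.33 TPM over the WT libraries and 7.13 ± 0.714 TPM over the iKO libraries (SD, n = 4), a difference of -1.20 on the log2(TPM + 1) scale (limma, adjusted p = 3.82e-06). Of 12 stem and progenitor markers chosen for the check, 11 were tested and none was listed at 0 in every library of a group. In iKO 2 were higher, Fabp7 (664 TPM in WT and 925 in iKO) and Nes (59.6 and 70.6 TPM), and 4 did not pass. The 5 that were lower included Slc1a3, a glial glutamate transporter gene, at 2039 TPM in WT and 1241 in iKO. Markers of other cell types were present too, among them Cldn5 of endothelium (335 TPM in WT), Rgs5 of pericytes (363 TPM), Islr of fibroblasts (75 TPM) and C1qa of microglia (255 TPM). The Y-linked gene Ddx3y also differed, with a mean of 53.8 TPM in WT against 23.6 in iKO, and Xist averaged 16.4 TPM in WT against 19.8 in iKO. Every library held RNA of both genes, Ddx3y at 22.5 to 56.8 TPM and Xist at 15.4 to 20.1 TPM. Whether libraries pooled animals of both sexes was not tested. The design text calls the libraries biological replicates, but no source used here says which animals went into which library. The p-values therefore reflect library-to-library spread, part of which may be technical. In bulk samples, fewer cells of a type and less RNA per cell cannot be told apart.

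Of the 44 collagen genes, 30 entered the test, in which a gene needed at least 1 TPM in at least 4 libraries, and 14 were lower. Of the 30, 28 reached 1 TPM in all 8 libraries; the exceptions were Col7a1 and Col22a1. At an adjusted p under 0.05, 5 of the 30 collagens were higher in iKO, 13 were lower and 12 did not pass. Over all 16413 genes tested, 52.6% were called, 20.7% as higher and 31.9% as lower, against 60%, 16.7% and 43.3% of the collagens, so the share of collagens called was close to that of all genes. Of the calls over all genes 39.3% were higher, against 49.9% with trimmed mean factors, under which 6 collagens were higher and 12 lower, and 49.7% with quantile normalization, which gave 7 and 10. A sex score from Y-linked genes and Xist, tried after results had been seen, separated the groups without overlap; with it as a covariate, limma called 0 of the 30 collagens, with 1 higher and 2 lower at an unadjusted p under 0.05. The median difference was -0.19 for the tested collagens and -0.06 for all genes tested. The 2 groups did not overlap for 20 of the 30 collagens (66.7%), 5 higher and 15 lower in iKO, beside 49.2% of all genes tested. Of the 18 called collagens, 9 differed by under 0.5 on the log2(TPM + 1) scale, and 1, Col5a3, by at least 1. That scale, meant below by the log2 scale, understates changes of low genes. Mean TPM in iKO was 2.04 times that in WT for Col9a2, 1.99 times for Col28a1 and 0.5 times for Col2a1.

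**Figure D1:**
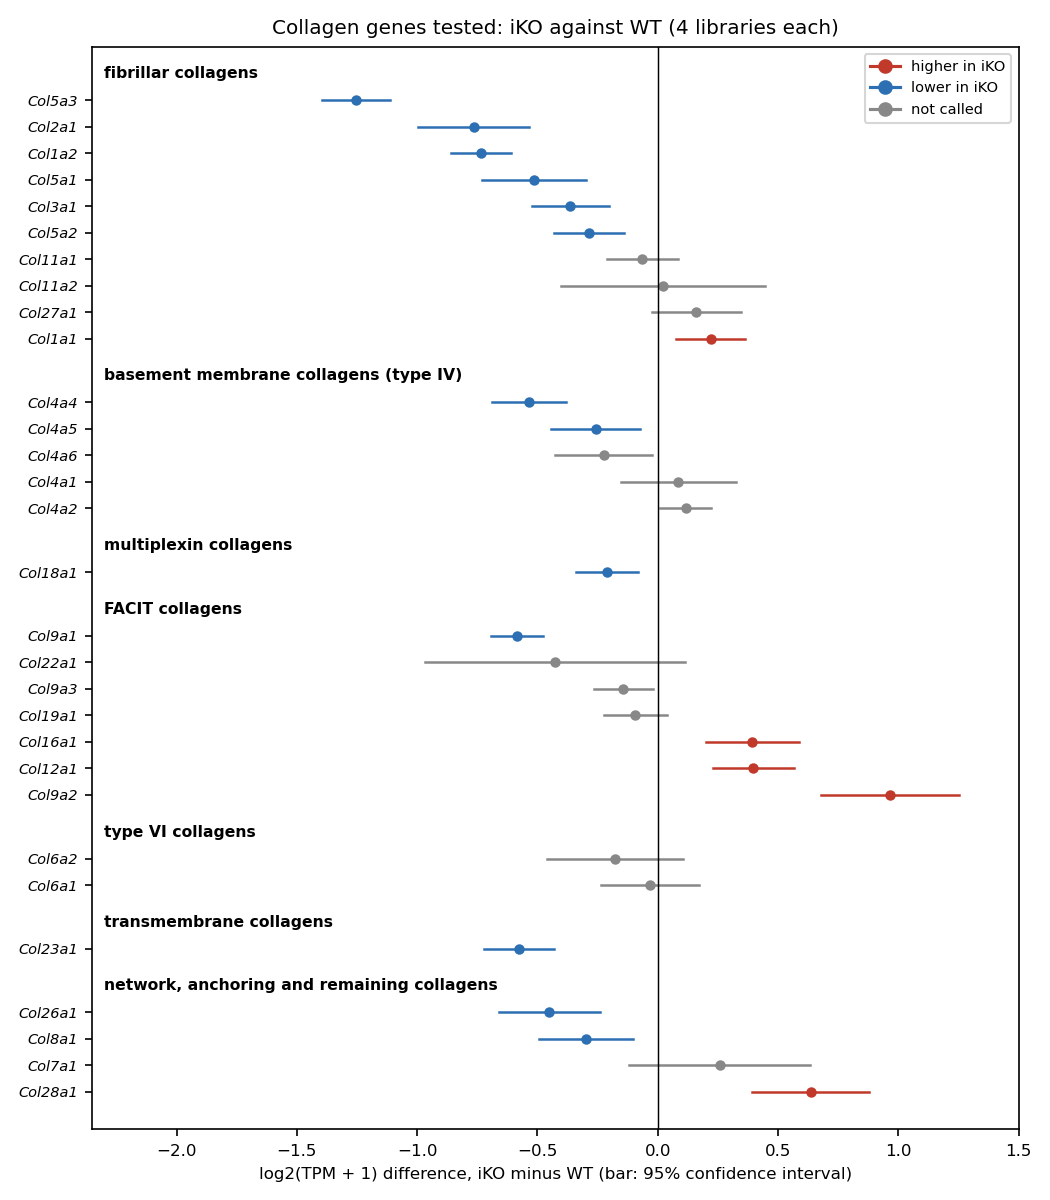
Difference in log2(TPM + 1), iKO minus WT, for the 30 collagen genes tested, by class; points are limma estimates and bars 95% confidence intervals, coloured by the call. Fibrillar genes spread from -1.25 (Col5a3) to 0.22 (Col1a1), and Col9a2 at 0.97 is the highest of all.

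Summed over the 44 genes, collagen RNA lay between 383 and 417 TPM across the WT libraries and between 352 and 384 across the iKO libraries, and these ranges overlapped. Fibrillar collagens summed to between 125 and 141 TPM across WT libraries and between 95.7 and 101 across iKO libraries, with no overlap. Type IV collagens summed to between 76.7 and 88 TPM across WT libraries and between 77.2 and 93.8 across iKO libraries, which overlapped. The fibrillar class held 32.5% of collagen TPM in WT and 26.7% in iKO. In WT the most abundant collagen was Col9a3 at 73.4 TPM, followed by Col4a1 (41.4 TPM), Col3a1 (34.3 TPM), Col1a2 (29.8 TPM), Col16a1 (28.9 TPM) and Col4a2 (28.1 TPM). Col9a3 stood apart from the rest, while each of the following genes overlapped the next in its WT range, so neighbours in this order were not separated. Genes further apart could be. The lowest WT library of Col4a1 (37.2 TPM) was above the highest of Col1a2 (32.6 TPM), Col16a1 (34.6 TPM) and Col4a2 (29.8 TPM). In all, 12 of the 44 averaged 10 TPM or more in WT.

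Promoter windows of the genes on which the results turn are shown first. Col5a3 and Col1a2 had the clearest falls in the fibrillar class. Col9a1 and Col9a2 encode chains of the same collagen and moved in opposite directions, and Col4a1 and Col4a2 start close together on opposite strands. The sequences are from RefSeq on GRCm38.p6 and run 5′ to 3′ from 250 bases before to 50 bases after the annotated start. Capitals mark the letters CCAAT and GGGCGG on either strand, so ATTGG and CCGCCC are capitalised too. Col9a1 has a pair of annotated starts.
Col5a3 (chr9:20815018-20815317, minus strand): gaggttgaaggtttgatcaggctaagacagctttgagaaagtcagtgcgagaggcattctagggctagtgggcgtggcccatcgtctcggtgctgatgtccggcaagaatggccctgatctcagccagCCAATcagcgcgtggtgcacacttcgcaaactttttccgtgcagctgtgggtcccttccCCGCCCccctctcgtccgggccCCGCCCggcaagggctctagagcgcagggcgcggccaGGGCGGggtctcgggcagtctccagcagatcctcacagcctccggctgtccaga
Col1a2 (chr6:4505368-4505667, plus strand): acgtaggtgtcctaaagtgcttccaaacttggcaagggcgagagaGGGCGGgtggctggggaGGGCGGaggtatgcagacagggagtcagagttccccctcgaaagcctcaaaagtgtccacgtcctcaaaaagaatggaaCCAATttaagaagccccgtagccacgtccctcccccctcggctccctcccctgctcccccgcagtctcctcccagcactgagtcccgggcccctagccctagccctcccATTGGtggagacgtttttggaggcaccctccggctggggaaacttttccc
Col4a2 (chr8:11312555-11312854, plus strand): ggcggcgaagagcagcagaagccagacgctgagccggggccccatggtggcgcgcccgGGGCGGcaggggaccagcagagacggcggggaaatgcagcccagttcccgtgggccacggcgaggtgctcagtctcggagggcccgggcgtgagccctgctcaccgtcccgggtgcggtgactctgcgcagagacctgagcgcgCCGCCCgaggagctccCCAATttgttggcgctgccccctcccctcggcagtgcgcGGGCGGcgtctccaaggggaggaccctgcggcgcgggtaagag
Col9a1, upstream start (chr1:24177360-24177659, plus strand): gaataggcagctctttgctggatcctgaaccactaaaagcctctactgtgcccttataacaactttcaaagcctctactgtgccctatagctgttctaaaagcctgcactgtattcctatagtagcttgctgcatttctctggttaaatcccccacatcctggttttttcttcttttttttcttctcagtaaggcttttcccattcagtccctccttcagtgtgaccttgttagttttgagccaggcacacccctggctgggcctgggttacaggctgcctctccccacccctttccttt
Col9a1, downstream start (chr1:24194953-24195252, plus strand): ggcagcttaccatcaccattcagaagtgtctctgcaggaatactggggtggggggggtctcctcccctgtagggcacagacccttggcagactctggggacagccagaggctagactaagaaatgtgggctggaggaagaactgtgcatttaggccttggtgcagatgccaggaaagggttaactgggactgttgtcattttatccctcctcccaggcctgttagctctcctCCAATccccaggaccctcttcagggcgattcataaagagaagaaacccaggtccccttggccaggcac
Col9a2 (chr4:121039316-121039615, plus strand): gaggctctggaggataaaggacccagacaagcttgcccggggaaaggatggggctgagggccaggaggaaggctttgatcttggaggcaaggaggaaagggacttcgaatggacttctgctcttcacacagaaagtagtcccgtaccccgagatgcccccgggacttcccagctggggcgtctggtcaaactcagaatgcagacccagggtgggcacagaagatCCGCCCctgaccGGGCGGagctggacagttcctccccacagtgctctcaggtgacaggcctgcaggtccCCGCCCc

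RefSeq windows were at hand for 35 of the 44 collagen genes, 38 windows in all. GGGCGG, on either strand, was found in 23 of the 38 (60.5%), and in 35.7% of all 32851 windows of the table. Collagen windows were also richer in G and C, the only letters of GGGCGG, with a median of 59.8% against 52.7%. The part of base composition in the GGGCGG share was not tested. CCAAT was found in 13 windows (34.2%, against 37.4% of all windows), CAGAC in 20 (52.6%, against 49.6%) and TATAAA in 5 (13.2%, against 13.6%). The dinucleotide CG occurred a median of 11.5 times per collagen window and 7 times per window of the table. Among the printed windows CG ran from 0 in the upstream Col9a1 window and 1 in the downstream one to 10 for Col9a2, 13 for Col1a2, 20 for Col5a3 and 33 for Col4a2. Windows of genes that fell had a median of 12.5 CG and a range of 0 to 34, and windows of tested genes that did not pass had a median of 16 and a range of 3 to 37, and these ranges overlapped. The annotated starts of Col4a1 and Col4a2 lie 21 bases apart on opposite strands, and 78 bases of their windows are the same DNA. Exons of the pair share 22 bases in GENCODE M21, so reads from those bases cannot be told apart without strand. A match of letters describes the window and does not show a bound site.

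Of 11 fibrillar collagen genes, 10 were tested, 6 fell, 1 rose and 3 did not pass. That is 60% lower and 10% higher, beside 31.9% and 20.7% of all genes tested, with a median difference of -0.33 beside -0.06 for all genes. The genes that fell encode chains of types I, II, III and V, and the gene that rose, Col1a1, encodes the partner chain of one that fell. Of 14 fibroblast and meningeal markers, 10 were tested, 1 was higher and 5 were lower. That list summed to between 300.3 and 313 TPM across WT libraries and between 259.7 and 264 across iKO libraries. Its members did not move together: Islr fell from 75 to 56.8 TPM and Pdgfra from 49.5 to 38.3 TPM. Lum rose from 1.57 to 2.65 TPM, and Dcn, at 35.9 TPM in WT and 35.3 in iKO, was among the 4 that did not pass. The part of these cells in the fibrillar differences was not tested.

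Col5a3 (ENSMUSG00000004098.7) encodes the α3 chain of type V collagen, a minor component of fibres built mainly from type I. It stood at 10.6, 12.6, 11.2 and 11.3 TPM in the WT libraries and at 4.12, 4.06, 4.31 and 4.29 TPM in the iKO libraries. Every iKO library was below every WT library by more than the whole range of either group. The means were 11.4 ± 0.833 TPM in WT and 4.2 ± 0.122 TPM in iKO (SD, n = 4), and the difference was -1.25 (SE 0.0623, adjusted p = 6.84e-07). In the authors' deposited table the log2 fold change was -1.41. It was the largest difference of any tested collagen in either direction.

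The other chains of type V fell by less in TPM. Col5a2 (ENSMUSG00000026042.16), the α2 chain, stood at 8.93, 10.8, 9.59 and 9.83 TPM in WT and at 7.64, 7.54, 8.16 and 7.99 TPM in iKO, a difference of -0.29 (SE 0.0634, adjusted p = 0.00483). Col5a1 (ENSMUSG00000026837.16), the α1 chain found in most type V molecules, stood at 3.49, 3.8, 4.75 and 4.15 TPM in WT and at 2.24, 2.81, 2.51 and 2.53 TPM in iKO, a difference of -0.51 (SE 0.0957, adjusted p = 0.00188). Neither gene's groups overlapped. The fall of Col5a1 was seen in TPM only: in the authors' deposited table its log2 fold change was -0.08 with an adjusted p of 0.538, beside a log2 ratio of mean TPM of -0.68. The cause of that gap was not tested.

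Type I collagen, the main collagen of bone, skin and tendon, is assembled from α1 and α2 chains, and their genes moved in opposite directions. Col1a2 (ENSMUSG00000029661.16), the α2 chain, stood at 27.5, 32.6, 30.1 and 29.2 TPM in WT and at 16.7, 17.5, 17.8 and 18 TPM in iKO. All iKO libraries were lower, and the difference was -0.73 (SE 0.0543, adjusted p = 7.07e-06). Col1a1 (ENSMUSG00000001506.10), the α1 chain, stood at 10.3, 12.3, 11.4 and 10.9 TPM in WT and at 13.4, 12.3, 13.3 and 13.9 TPM in iKO. Here the groups touched, since WT replicate 2 and iKO replicate 2 stood at almost the same level, and the difference was 0.22 (SE 0.0625, adjusted p = 0.0164). Log2 fold changes in the authors' deposited table were -0.67 for Col1a2 and 0.27 for Col1a1.

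The ratio of Col1a1 to Col1a2 TPM shows the divergence within each library. It was 0.376, 0.376, 0.378 and 0.375 in the WT libraries and 0.801, 0.7, 0.746 and 0.775 in the iKO libraries. The mean ratio was 0.376 ± 0.00124 in WT and 0.756 ± 0.0432 in iKO (SD, n = 4). The WT libraries were almost identical in this ratio, and every iKO library was far above them. The ratio was computed after both levels had been seen, so no test is given for it.

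**Figure D2:**
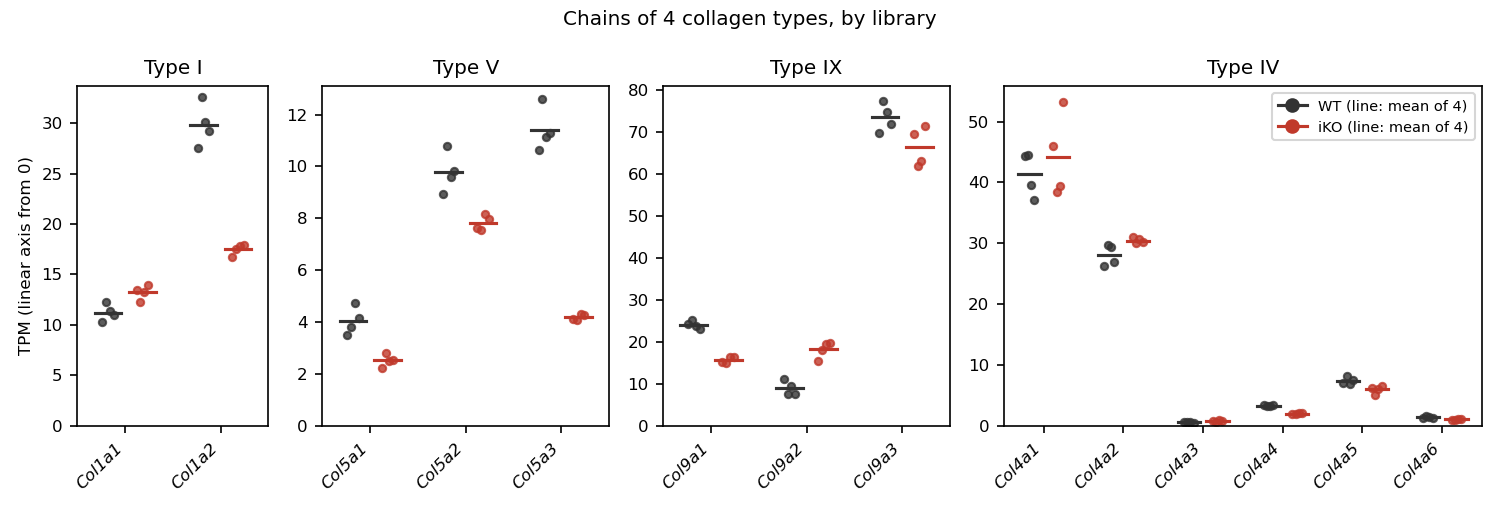
Levels in TPM (linear axes from 0) of the chains of collagen types I, V, IX and IV in each of 4 WT and 4 iKO libraries; points are libraries and lines group means. Col1a2 falls from 29.8 to 17.5 TPM while Col1a1 goes from 11.2 to 13.2, and Col9a1 falls while Col9a2 rises past it.

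Col3a1 (ENSMUSG00000026043.18) encodes type III collagen of vessels and meninges, which is a known ligand of the adhesion receptor ADGRG1 in the developing mouse cortex. It stood at 37.6, 34.3, 34.5 and 30.7 TPM in WT and 23.9, 25.9, 28.1 and 27.6 TPM in iKO, the highest mean of the fibrillar genes, though its WT range overlapped that of Col1a2. The groups did not overlap and the difference was -0.36 (SE 0.0705, adjusted p = 0.00232), while the log2 fold change in the authors' deposited table was smaller, at -0.18. Adgrg1 itself fell from 315 ± 4.96 to 245 ± 4.71 TPM (SD, n = 4; -0.36 on the log2 scale, SE 0.0199, adjusted p = 1.24e-06).

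Col2a1 (ENSMUSG00000022483.17), the type II collagen gene of cartilage, stood at 4.12, 5.85, 4.88 and 4.51 TPM in WT and 2.48, 2.58, 2.12 and 2.51 TPM in iKO. Its mean level in iKO was 0.5 of that in WT, and the difference was -0.76 (SE 0.102, adjusted p = 0.000262). The chains of type XI, which joins type II in cartilage fibres, did not pass: Col11a1 stood at 11.6 ± 1.01 TPM in WT and 11.1 ± 0.453 TPM in iKO, and Col11a2 at 9.06 ± 2.78 and 9.02 ± 1.51 TPM (SD, n = 4). Their 95% intervals were -0.21 to 0.08 and -0.40 to 0.44, and the interval of Col11a2 contains a fall as large as that of Col5a2. Col27a1 stood at 3.32 TPM in WT and 3.83 TPM in iKO (0.16 on the log2 scale, SE 0.0812, adjusted p = 0.13), and passed as higher with quantile normalization, at 0.28. Col24a1, below the filter, stood at 0.0917, 0.364, 0.285 and 0.205 TPM in WT and 0.0681, 0.082, 0.122 and 0.095 TPM in iKO (exact permutation p = 0.0857).

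**Figure D3:**
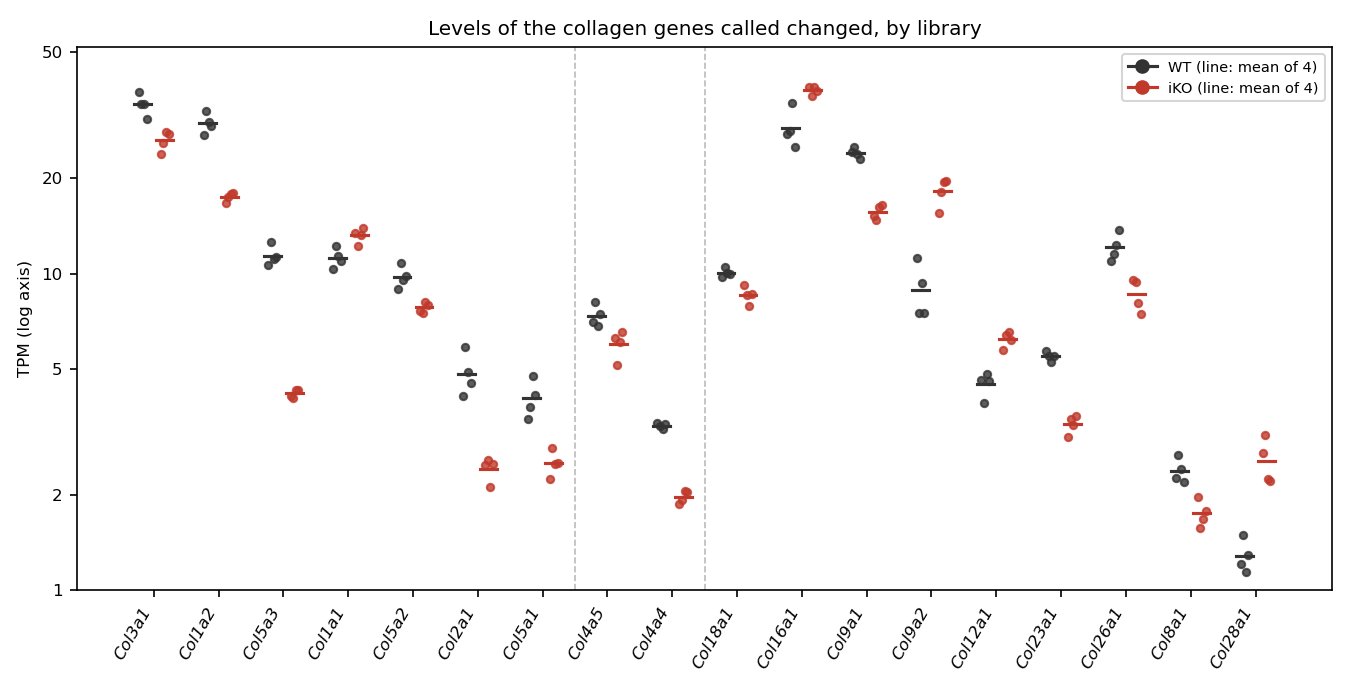
TPM on a log axis of the 18 collagen genes called changed, in each WT and iKO library (points) with group means (lines); dashed lines part fibrillar, type IV and other collagens. Col1a1 is the only one of the 18 whose groups touch.

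The type IV genes did not move as a class. Of 6 genes, 5 were tested, 2 fell (40%, beside 31.9% of all genes), 0 rose and 3 did not pass by limma; the median difference was -0.23. At an unadjusted p under 0.05, 1 of the 5, Col4a2, was higher, and Col4a4, Col4a5 and Col4a6 were lower. The authors' deposited table called Col4a1, Col4a2 and Col4a3 higher and Col4a4 and Col4a5 lower. Endothelial markers, by contrast, were called higher in 13 of 14 cases, and their sum lay between 1035 and 1068 TPM across WT libraries and between 1652 and 1741 across iKO libraries. Their part in the levels of vascular collagens was not tested.

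Col4a1 (ENSMUSG00000031502.11) and Col4a2 (ENSMUSG00000031503.13) encode the α1 and α2 chains of the network found in nearly all basement membranes, those of brain vessels included. Col4a1 stood at 44.3, 44.6, 39.7 and 37.2 TPM in WT and 46, 38.4, 39.5 and 53.2 TPM in iKO, and the groups overlapped. Col4a2 stood at 26.3, 29.8, 29.3 and 26.9 TPM in WT and 31, 30, 30.7 and 30.2 TPM in iKO; every iKO library was higher, but WT replicate 2 came close to the lowest iKO library. The differences were 0.09 (SE 0.106, adjusted p = 0.525) and 0.12 (SE 0.047, adjusted p = 0.0664), with 95% intervals of -0.15 to 0.33 and 0.01 to 0.22. Col4a2 passed under both other scalings tried, at 0.18 with trimmed mean factors (adjusted p = 0.00789) and 0.18 with quantile normalization (adjusted p = 0.0069). Without WT replicate 2 it passed too, at 0.14 (adjusted p = 0.0344). In the authors' deposited table both were called higher, at 0.18 and 0.16. The pair shares its promoter region, shown above with the Col4a2 window, and the Col4a1 to Col4a2 ratio was 1.35 to 1.69 in WT and 1.28 to 1.76 in iKO, so that the ranges overlapped.

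The minor type IV chains form the networks of kidney and other specialised basement membranes. Col4a4 stood at 3.39, 3.3, 3.23 and 3.35 TPM in WT and 1.87, 1.92, 2.06 and 2.05 TPM in iKO, a clear separation (-0.54 on the log2 scale, SE 0.0675, adjusted p = 0.000186). Col4a5 stood at 7.04, 8.12, 6.84 and 7.49 TPM in WT and 6.29, 5.14, 6.08 and 6.53 TPM in iKO (-0.26 on the log2 scale, SE 0.0819, adjusted p = 0.0261). The groups of Col4a5 did not overlap, but its call was lost with quantile normalization at -0.14, with trimmed mean factors at -0.20 and without iKO replicate 2 at -0.20, WT replicate 2 at -0.22 or WT replicate 4 at -0.25. Col4a6 stood at 1.44 ± 0.153 TPM in WT and 1.09 ± 0.0729 TPM in iKO (-0.23 on the log2 scale, SE 0.0886, adjusted p = 0.0594). Col4a3, below the filter, stood at 0.463 to 0.65 TPM in WT and 0.709 to 0.888 TPM in iKO, higher in every iKO library (exact permutation p = 0.0286, the smallest that 4 against 4 allows). Col4a3 and its neighbour Col4a4 thus differed in opposite directions, with log2 fold changes of 0.47 and -0.68 in the authors' deposited table. Exons of Col4a3 overlap 563 bases of C430014B12Rik on the other strand in GENCODE M21, so reads of the pair cannot be told apart without strand. C430014B12Rik reached 1.14 TPM at most, above every Col4a3 value, and its part in the Col4a3 difference was not tested.

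The FACIT collagens, which lie on the surface of fibres and link them to the matrix, held 3 of the 5 collagens that rose. Of 9 genes, 7 were tested, 3 rose, 1 fell and 3 did not pass, or 42.9% higher and 14.3% lower beside 20.7% and 31.9% of all genes.

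Type IX collagen, known from cartilage fibres, is built from chains of Col9a1, Col9a2 and Col9a3, and here each gene behaved differently. Col9a2 (ENSMUSG00000028626.5) stood at 11.2, 7.54, 9.38 and 7.53 TPM in WT and 15.5, 18.1, 19.5 and 19.6 TPM in iKO. Its mean in iKO was 2.04 times that in WT, and the difference of 0.97 (SE 0.126, adjusted p = 0.000232) was the largest rise of any tested collagen. Col9a1 (ENSMUSG00000026147.16) stood at 24.3, 25.1, 23.8 and 23.1 TPM in WT and 15.3, 14.8, 16.3 and 16.4 TPM in iKO, with every iKO library lower (-0.58 on the log2 scale, SE 0.048, adjusted p = 1.37e-05). Col9a3 (ENSMUSG00000027570.15) stood at 69.7, 77.4, 74.6 and 71.9 TPM in WT and 69.4, 61.9, 63 and 71.4 TPM in iKO. Its groups overlapped and the difference of -0.14 (SE 0.0542, adjusted p = 0.0513) did not pass. It passed without iKO replicate 1 (-0.17), iKO replicate 4 (-0.18) or WT replicate 1 (-0.17). Col9a3 shares 234 exon bases with Tcfl5 on the other strand, which reached 0.765 TPM at most.

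The order of the chains therefore changed: Col9a1 was above Col9a2 in all 4 WT libraries, and Col9a2 was above Col9a1 in all 4 iKO libraries. Set against Col9a3, the Col9a2 ratio was 0.0974 to 0.16 in WT and 0.224 to 0.31 in iKO, and the Col9a1 ratio 0.32 to 0.348 in WT and 0.22 to 0.259 in iKO. These ratios were formed after the levels had been seen and carry no test. Log2 fold changes in the authors' deposited table were 0.82 for Col9a2, -0.55 for Col9a1 and -0.12 for Col9a3.

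Col16a1 (ENSMUSG00000040690.15) was the most abundant collagen that rose, from 27.5, 28.3, 34.6 and 25.2 TPM in WT to 38.9, 36.3, 39 and 37.9 TPM in iKO. WT replicate 3 was the highest of its group and still lay below every iKO library, and the difference was 0.39 (SE 0.0846, adjusted p = 0.00411). Col12a1 (ENSMUSG00000032332.17), a collagen of tendon and other dense tissue, rose from 4.64, 3.9, 4.83 and 4.59 TPM to 5.75, 6.41, 6.53 and 6.16 TPM (0.40 on the log2 scale, SE 0.074, adjusted p = 0.00192). Col19a1, which is known in the mouse for a role in hippocampal synapse formation, stood at 4.91 ± 0.163 TPM in WT and 4.54 ± 0.15 TPM in iKO (SD, n = 4). Every iKO library was lower, yet the difference of -0.09 (SE 0.0575, adjusted p = 0.206) did not pass. Col22a1 varied widely, at 1.11, 1.09, 2.54 and 2.5 TPM in WT and 0.576, 1.45, 1.46 and 0.761 TPM in iKO, and did not pass in TPM (-0.43 on the log2 scale, SE 0.238, adjusted p = 0.162), while the authors' deposited table gave -0.89 (adjusted p = 1.46e-06).

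Col18a1, a basement membrane collagen of the multiplexin class from which endostatin is cut, fell from 9.75, 10.5, 10.1 and 9.99 TPM to 9.21, 8.57, 7.92 and 8.64 TPM (-0.21 on the log2 scale, SE 0.0563, adjusted p = 0.0121), a call lost with quantile normalization at -0.10. Col15a1, the other multiplexin, was below the filter at 0.0443 to 0.352 TPM in WT and 0.159 to 0.24 TPM in iKO. Its groups overlapped, while the authors' deposited table called it higher, at 1.41 (adjusted p = 0.0423).

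Of 4 membrane-spanning collagens, 1 was tested. Col23a1 (ENSMUSG00000063564.13) fell from 5.69, 5.51, 5.26 and 5.5 TPM to 3.06, 3.47, 3.33 and 3.55 TPM, with tight groups far apart (-0.58 on the log2 scale, SE 0.0642, adjusted p = 8.55e-05). Col25a1, a membrane collagen of neurons whose shed part is found in amyloid plaques, was below the filter at 0.971, 0.756, 1.03 and 0.585 TPM in WT and 0.312, 0.117, 0.263 and 0.337 TPM in iKO. All its iKO values were lower (exact permutation p = 0.0286), and the authors' deposited table gave -1.13. Col13a1 (0.613 to 0.912 TPM in WT and 0.422 to 1.05 TPM in iKO) and Col17a1 (0.0209 to 0.0641 and 0.0378 to 0.0946 TPM) overlapped.

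Of the network, anchoring and remaining collagens, Col26a1 (ENSMUSG00000004415.15) fell from 11, 11.5, 12.4 and 13.7 TPM to 9.53, 9.44, 8.06 and 7.47 TPM (-0.45 on the log2 scale, SE 0.093, adjusted p = 0.00332). Col28a1, a collagen known from the sheaths of peripheral nerves, rose from 1.21, 1.5, 1.15 and 1.3 TPM to 2.72, 3.1, 2.24 and 2.22 TPM, with a mean 1.99 times as high (0.64 on the log2 scale, SE 0.107, adjusted p = 0.00106). Col8a1, a short-chain network collagen of vessels, fell from 2.39 ± 0.216 to 1.75 ± 0.17 TPM (SD, n = 4; -0.30 on the log2 scale, SE 0.0864, adjusted p = 0.0175), a call lost with quantile normalization at -0.17. Its partner chain Col8a2 was below the filter and also lower in every iKO library, at 0.964 to 1.23 TPM in WT and 0.563 to 0.824 TPM in iKO (exact permutation p = 0.0286). Col7a1, of the anchoring fibrils under skin epithelium, stood at 0.568 to 1.26 TPM in WT and 0.758 to 1.75 TPM in iKO (0.26 on the log2 scale, SE 0.165, adjusted p = 0.221). Col10a1, of growth plate cartilage, overlapped at 0.0763 to 0.115 and 0.0336 to 0.235 TPM.

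Type VI collagens, which form beaded filaments, were low. Col6a1 (1.96 ± 0.249 TPM in WT and 1.89 ± 0.117 TPM in iKO) and Col6a2 (2.16 ± 0.23 and 1.81 ± 0.403 TPM; SD, n = 4) did not pass, with 95% intervals of -0.24 to 0.17 and -0.46 to 0.10. Col6a3 (0.261 to 1.14 TPM in WT and 0.364 to 0.983 TPM in iKO) and Col6a4 (0.0438 to 0.236 and 0.118 to 0.437 TPM) were below the filter and overlapped. Col6a5 stood at 0.328, 0.346, 0.309 and 0.308 TPM in WT and 0.0402, 0.101, 0.164 and 0.12 TPM in iKO, lower in every iKO library (exact permutation p = 0.0286). Col6a6 stood at 0.024 to 0.0453 TPM in WT and was listed at 0 in all 4 iKO libraries, with an authors' deposited mean normalized signal of only 1.29.

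Below the filter, the groups did not overlap for 5 of 14 collagens, Col4a3 higher and Col8a2, Col25a1, Col6a5 and Col6a6 lower, beside 13.6% of the 13077 genes below the filter with any TPM above 0. Those genes were not matched to the collagens in level, so no excess can be read from this. The remaining low members not yet given, Col14a1 (0.265 to 0.478 TPM in WT, 0.378 to 1.07 TPM in iKO) and Col20a1 (0.207 to 0.773 and 0.261 to 0.425 TPM), overlapped. In the authors' deposited table Col14a1 was called higher, at 1.21 (adjusted p = 0.00353). Col4a3bp, the ceramide transfer gene, stood at 6.37 ± 0.66 TPM in WT and 6.9 ± 0.254 TPM in iKO (SD, n = 4) and did not pass (0.10 on the log2 scale, SE 0.0729, adjusted p = 0.266), except with quantile normalization, at 0.22.

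The genes that make, export, bind and break down collagen were compared as lists by role. Of 59 genes, 47 were tested: 6 were higher, 20 lower and 21 did not pass, 55.3% called beside 52.6% of all genes. By direction, 12.8% were higher and 42.6% lower, beside 20.7% and 31.9% of all genes. The median difference of these lists was -0.22, beside -0.06 for all genes tested.

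Of 18 tested modification and folding genes, 4 rose (22.2%) and 6 fell (33.3%), near the 20.7% and 31.9% of all genes. P4ha1, a subunit gene of the prolyl 4-hydroxylase that stabilises the helix, rose from 30.1 TPM in WT to 35.2 in iKO. The prolyl isomerase gene Ppib rose from 355 TPM to 385, and Colgalt2, a collagen galactosyltransferase gene, from 10.2 TPM to 12.2. The chaperone and isomerase gene Fkbp10 fell from 87.7 ± 1.51 to 53 ± 1.32 TPM (SD, n = 4; -0.72 on the log2 scale, SE 0.0284, adjusted p = 1.89e-07), the largest fall of this list. The prolyl 3-hydroxylase family genes P3h1 and P3h3 also fell, P3h1 from a mean of 22.2 TPM to 16.7 and P3h3 from 16.3 TPM to 9.87.

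Among 12 tested genes of export, trimming and cross-linking, 1 rose and 4 fell; 33.3% lower is near the 31.9% of all genes, and 41.7% called is below their 52.6%. Bmp1, the protease that removes the carboxyl propeptide, fell from 23.1 ± 0.893 to 17.5 ± 0.645 TPM, and Loxl3, a cross-linking lysyl oxidase, from 32.6 ± 1.77 to 24.4 ± 1.07 TPM (SD, n = 4). The export receptor gene Mia3 fell from 138 TPM to 119, and Pxdn, whose product cross-links type IV collagen, from 22.9 TPM to 18.2. Pcolce, the enhancer of the propeptide protease, passed as higher at 6.8 TPM in WT and 8.9 in iKO (adjusted p = 0.04), but its groups overlapped, and the authors' deposited table gave -0.11 (adjusted p = 0.673), the opposite sign.

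Of 8 tested collagen receptor genes, 4 fell and 0 rose by limma, with 0 higher at an unadjusted p under 0.05. That is 50% lower and 0% higher, beside 31.9% and 20.7% of all genes. In either direction 50% were called, near the 52.6% of all genes. The authors' deposited table called Ddr1 higher, at 0.08 (adjusted p = 0.0154). Besides Adgrg1, Itgb1, the shared β subunit of the collagen integrins, fell from 227 ± 4.21 to 185 ± 2.63 TPM and Ddr2, a fibrillar collagen receptor kinase, from 17.9 ± 1.95 to 11.4 ± 1.21 TPM (SD, n = 4). Lair1, an inhibitory collagen receptor of immune cells, fell from 17.5 to 9.08 TPM, beside microglial markers of which 6 of 7 were called lower. Those markers summed to between 605 and 650.5 TPM across WT libraries and between 483 and 494 across iKO libraries. Their part in the fall of Lair1 was not tested.

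Of 9 tested genes of collagen breakdown, which include inhibitors, 6 fell and 1 rose, or 66.7% lower and 11.1% higher beside 31.9% and 20.7% of all genes. The gelatinase gene Mmp2 fell from 15.7 ± 1.15 to 7.85 ± 1.41 TPM (-0.93 on the log2 scale, SE 0.111, adjusted p = 0.00014) and the membrane collagenase gene Mmp14 from 33.6 ± 1.1 to 23.5 ± 0.174 TPM (SD, n = 4; -0.50 on the log2 scale, SE 0.0353, adjusted p = 5.35e-06). The inhibitors of these proteases fell too, Timp3 from 81.6 TPM to 59 and Timp2 from 20.9 TPM to 16.2. Ctsk, a collagen-cleaving cathepsin, fell from 11.8 to 6.73 TPM, and Ctsb, a lysosomal cathepsin, from 683 TPM to 535. The gene that rose was Fap, from 1.52 ± 0.755 to 3.14 ± 1.07 TPM (SD, n = 4), though its groups overlapped (0.72 on the log2 scale, SE 0.234, limma adjusted p = 0.0284). Its log2 fold change in the authors' deposited table was 0.84. Mmp9 and Timp1 were the tested members of the list that did not pass.

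**Figure D4:**
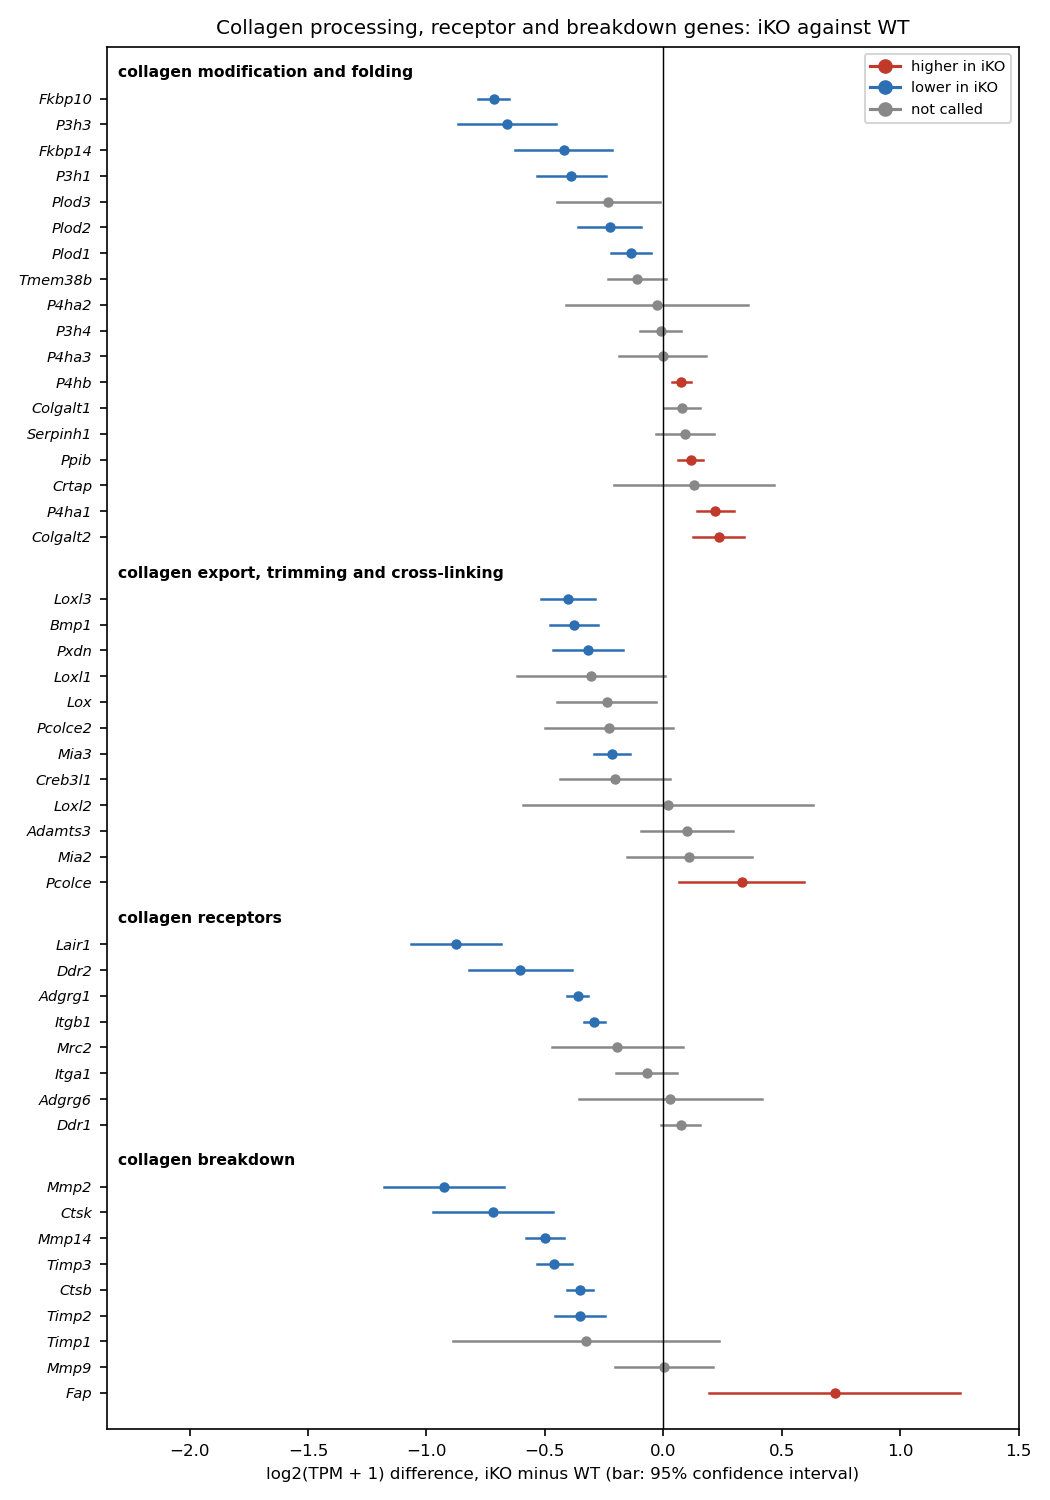
Difference in log2(TPM + 1), iKO minus WT, with 95% confidence intervals for the 47 tested genes of collagen modification, export, binding and breakdown, coloured by the call. Receptors and breakdown genes lie mostly left of 0, with Mmp2 at -0.93 and Lair1 at -0.88, while Fap lies right of 0 at 0.72. Modification genes lie on both sides.

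Markers of other cells that can make collagen moved in more than one direction. Of 11 tested pericyte and smooth muscle markers, 4 were higher and 3 lower, and the list summed to between 863 and 918 TPM across WT libraries and between 1004 and 1051 across iKO libraries. Bone and cartilage markers were mostly low, with 5 of 11 tested, 2 higher and 2 lower, and a sum between 55 and 57.8 TPM across WT libraries and between 61.1 and 65.3 across iKO libraries. Ibsp, a bone matrix gene, rose from a mean of 2.17 TPM to 8.46, and Dmp1, of osteocytes, from 2.56 TPM to 7.91. Most of the bone and cartilage sum in both groups was Alpl, the bone and liver alkaline phosphatase gene, which fell from 47.1 TPM to 42.8. Chad, a cartilage matrix gene, fell from 1.59 TPM to 1.04. Neither Alpl nor Chad was called in the authors' deposited table. Oligodendrocyte precursor markers, 1 of 6 higher and 4 lower, summed to between 1697 and 1724 TPM across WT libraries and between 1661 and 1739 across iKO libraries. No marker of any list was at 0 in every library of a group, and the part of these cells in the collagen differences was not tested.

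The authors' deposited comparison gave a second view from the same libraries. It called 28 of 44 collagens (63.6%), 10 higher and 18 lower, beside 33.9% of all genes with a p-value in that table, which include many very low genes. Of the 30 collagens tested here it called 21, of which 17 were also called here, all in the same direction. Called only in the deposited table were Col4a1, Col4a2, Col9a3 and Col22a1, and called only here was Col5a1. Its mean normalized signal ran from 1.29 for Col6a6 to 1763 for Col4a1. Col24a1 showed the widest gap to the TPM values among the 43 collagens with a TPM ratio, with a log2 ratio of mean TPM of -1.36 and a deposited log2 fold change of -0.05, at a mean normalized signal of 6.6.

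**Figure D5:**
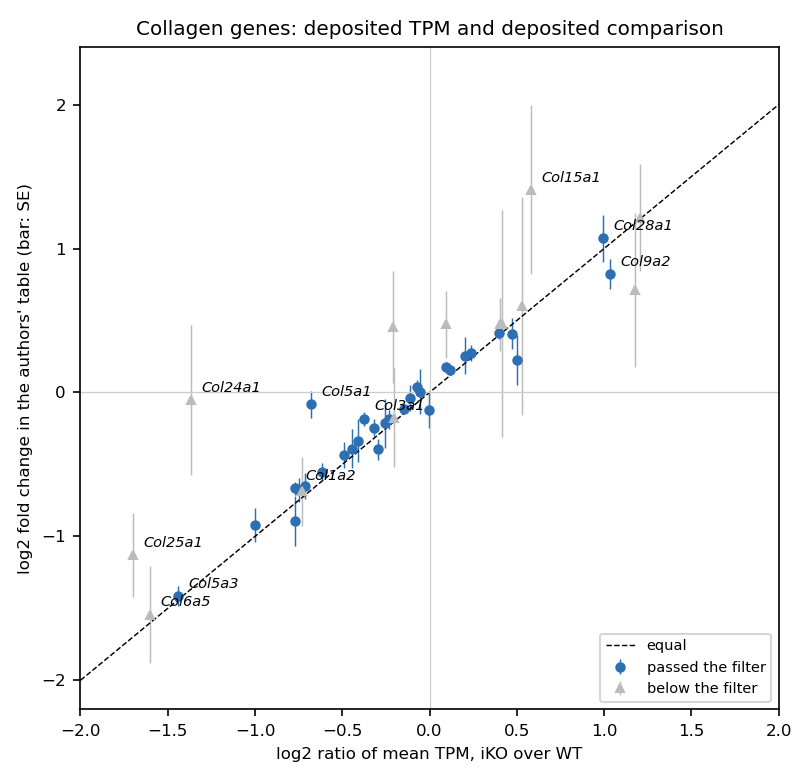
Log2 ratio of mean TPM, iKO over WT (x), against the log2 fold change of the authors' deposited table (y, bars SE) for 43 collagens; Col6a6, listed at 0 in iKO, is left out. Most genes lie near the dashed line of equality. Among those above it are Col24a1 (-1.36 and -0.05), Col15a1 (0.58 and 1.41), Col20a1 (-0.21 and 0.45) and Col5a1 (-0.68 and -0.08).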

How the data were processed

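The authors deposited TPM values for 55385 genes in 8 libraries, 4 iKO and 4 WT. Per the labels' protocols, libraries were made with Smart-Seq2 and read as paired ends; depth is unknown, since TPM keeps none. Per the file headers, the authors' comparison table holds a mean normalized signal, log2 fold changes, their errors, a test score and p-values, raw and adjusted. Aligner, quantifier, strand setting and build: not given in the sources used here. Levels were tested with limma 3.58.1 (R 4.3.3) on log2(TPM + 1), two-sided, with trend and robust moderation and Benjamini-Hochberg adjustment over the 16413 genes with at least 1 TPM in at least 4 libraries; this scale understates changes of low genes. Differences are iKO minus WT, and calls need an adjusted p under 0.05. Members below the filter had an exact two-sided permutation test over 70 assignments, whose smallest p is 0.0286. The procedure was tested on simulated data. Alternatives were the omission of every library in turn, a replicate block, other pseudocounts (0.1 and 5), other filters (none, or a mean of 5 TPM or more), trimmed mean factors, quantile normalization, the deposited comparison and, added later, a sex score. Any member could be named, and from other lists up to 6 called genes with the smallest p. Ddr1, Mmp9, Timp1, Fap, Nes, Dcn, Ddx3y and Xist were named after their values were seen. Members and lists were chosen with earlier results of these data known. Exon overlaps are from GENCODE M21, which held all 45 gene IDs, and figures were drawn with matplotlib 3.10.9. Col21a1 was not analysed here.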

Additional observations from a re-analysis of the deposited data

Results flagged for a closer look

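In iKO replicate 1, Col6a1 stood at 1.716 TPM, below the other iKO libraries at 1.92 to 1.96 TPM. The same library had Col6a2 at 1.212 TPM, below 1.94 to 2.06 TPM in the others. Both stand out because the gap to the next library took 0.841 of the range of the 4 libraries for Col6a1 and 0.861 for Col6a2, above Dixon's limit. Of 62 groups examined, 2 passed that limit, and chance gives about 1 in 20. Neither gene was called by limma with this library (adjusted p = 0.788 and 0.258) or without it (0.986 and 0.591).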

How the results depend on the processing

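Of the 18 called collagens, 13 stayed called in the same direction under every alternative but the sex score below, 5 lost the call in some and none changed sign. The 5 were Col4a5, Col8a1, Col18a1, Col1a1 and Col5a1; a mean of at least 5 TPM left out the lower genes. Leaving out each library gave 5 to 6 collagens higher and 12 to 14 lower. The replicate numbers did not pair the libraries, since same-numbered libraries deviated with correlations of -0.044 to 0.001; with the replicate block, 4 collagens were higher and 11 lower, and Col1a1 (adjusted p = 0.0541), Col4a5 (0.0693) and Col8a1 (0.0596) lost their calls. With trimmed mean factors 6 were higher and 12 lower, and with quantile normalization 7 and 10. Over all genes, the share of calls that were higher was 39.3%, against 49.9% with trimmed mean factors, 49.7% with quantile normalization and 50.6% in the authors' deposited table. That table called 10 collagens higher. The sex score, the mean log2(TPM + 1) of 4 Y-linked genes minus that of Xist, was added as a covariate after results had been seen. It separates the groups, at -0.82 to -0.26 in iKO and 0.57 to 1.01 in WT, so it cannot be told apart from genotype. With it limma called 0 collagens higher and 0 lower (1 and 2 at an unadjusted p under 0.05), 0 machinery genes higher and 1 lower (2 and 10 unadjusted), and 195 genes higher and 228 lower in all. Under it 16 of the 18 called collagens had the same sign, and Col4a5 (0.30) and Col5a2 (0.0314) changed sign. The lowest adjusted p of a collagen was then 0.0798. TPM keeps no depth, so no detection limit can be given for the 14 collagens below the filter.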
